A study of Homo sapiens with 4 samples.

Results

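The genes described here are 10 that take up, store, recycle or export iron: TFRC, TFR2, SLC11A2, FTH1, FTL, NCOA4, HAMP, IREB2, SLC40A1 and HMOX1. For each gene, every accessible region that overlapped the gene body or the 10 kb on either side of it was taken, from GENCODE coordinates on hg38. These windows held 37 of the 80551 regions found in the series. HepG2 cells, an established human hepatocellular carcinoma line labelled as liver epithelial cells of WT genotype, were either untreated or given 5 µM tazemetostat for 48 h, and chromatin accessibility was measured by ATAC-seq on 50000 cells per library. ATAC-seq counts where a transposase can cut, so a peak marks open chromatin and not transcription. Tazemetostat inhibits EZH2, the enzyme that places the repressive mark H3K27me3. There were 2 libraries per group. The drug was dissolved in DMSO whereas the controls are labelled untreated, so the solvent and the drug cannot be told apart. The methods describe a DNase I digestion before ATAC-seq, aimed at free DNA and dead cells, for tazemetostat-treated cells. They do not say whether the controls had it. If the controls did not, this step and the drug cannot be told apart either. The labels do not say whether replicates were separate cultures, so the spread between them may be technical.

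Liver cells import transferrin-bound iron through transferrin receptors, move it out of endosomes with the transporter SLC11A2, hold the surplus in ferritin, and release it through ferroportin, the product of SLC40A1. Hepcidin, the hormone made from HAMP, is a liver product that removes ferroportin from the cell surface, and its gene is driven by bone morphogenetic protein (BMP) signals. Haem oxygenase-1, the product of HMOX1, frees iron from haem, and HMOX1 and the ferritin genes respond to oxidative stress through antioxidant response elements, which NRF2 binds and BACH1 represses.

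The sequences that the results below return to are given first, from hg38, 5′ to 3′ on the strand named. The first set holds consensus matches in regions of HMOX1, FTH1, HAMP and SLC40A1 that do not cover the canonical start, shown because they match the antioxidant and BMP elements described above. Capitals mark, on either strand, antioxidant response elements (TGACNNNGC) in HMOX1 region 1, FTH1 region 2 and SLC40A1 region 3, and BMP response elements (GGCGCC) in HAMP region 1.
HMOX1 region 1, chr22:35372007-35372126, plus strand: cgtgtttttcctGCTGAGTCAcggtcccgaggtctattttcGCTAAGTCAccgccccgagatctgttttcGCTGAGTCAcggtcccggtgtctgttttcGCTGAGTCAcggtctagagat
FTH1 region 2, chr11:61972031-61972104, minus strand: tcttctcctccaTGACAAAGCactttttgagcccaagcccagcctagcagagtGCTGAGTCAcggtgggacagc
HAMP region 1, chr19:35280194-35280269, plus strand: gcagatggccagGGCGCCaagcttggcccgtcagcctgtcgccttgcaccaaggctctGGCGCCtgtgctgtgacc
SLC40A1 region 3, chr2:189570902-189570934, minus strand: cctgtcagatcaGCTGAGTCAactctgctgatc

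The second set holds the 250 bases before the starts of NCOA4 and SLC40A1, the promoters at which a change in tag count passed the test below. Capitals mark SP/KLF matches (GGGCGG) and, in NCOA4, an AP-1 match (TGANTCA).
NCOA4 promoter, chr10:46030624-46030873, minus strand: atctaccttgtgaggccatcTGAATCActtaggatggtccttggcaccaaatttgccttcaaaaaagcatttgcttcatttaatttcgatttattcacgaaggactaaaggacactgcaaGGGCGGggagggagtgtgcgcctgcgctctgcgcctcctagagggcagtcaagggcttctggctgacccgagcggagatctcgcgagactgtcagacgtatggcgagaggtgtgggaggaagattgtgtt
SLC40A1 promoter, chr2:189580787-189581036, minus strand: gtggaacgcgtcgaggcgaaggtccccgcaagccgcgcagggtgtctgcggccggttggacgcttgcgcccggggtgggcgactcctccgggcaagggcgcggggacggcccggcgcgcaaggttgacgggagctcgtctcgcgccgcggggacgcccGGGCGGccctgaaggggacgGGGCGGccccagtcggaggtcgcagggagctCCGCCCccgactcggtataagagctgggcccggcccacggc

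Control replicates 1 and 2 had 17.2 and 23.8 M mapped tags with 26133 and 34768 peaks, and tazemetostat replicates 1 and 2 had 19.8 and 26.6 M with 55313 and 54157. Tags in peaks made up 4.32% and 5.69% of a control library and 11.51% and 9.81% of a tazemetostat library, and the fragment length used for peak calling was 200 bp in both controls and 144 bp in both tazemetostat libraries, so these differences and the treatment cannot be told apart. Levels are given below as normalised tag counts, the tags in a peak per 10 M mapped tags, and where no peak was called there is no value, which does not mean closed chromatin. A region at the transcription start was called for 7, 8, 7 and 8 of 10 hepatocyte markers in control replicates 1 and 2 and tazemetostat replicates 1 and 2, with none at ALB or FGB in any library. Their summed tag count ran from 169.2 to 241.6 in the controls and from 297.4 to 378.9 under tazemetostat. Both endothelial markers (PECAM1 and CDH5) had none, 1 of 4 leukocyte markers had one in each control and 2 of 4 in each tazemetostat library, summing to 15.7 and 18.9 against 78.6 and 59.2, and the fibroblast list had 1 of 3 in all libraries but tazemetostat replicate 1, with 2 (32.6 to 34.9 against 43.3 to 52.95). PTPRC, CD3E and COL1A1 had none. The part of any other cell type in the results was not tested, and in bulk chromatin a change per cell and a change in the share of open cells cannot be told apart.

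More peaks were called near the iron genes under tazemetostat than in the controls. The 10 windows held 19 and 25 peaks in the controls and 29 and 34 peaks under tazemetostat, or 22.0 ± 4.24 against 31.5 ± 3.54 (SD, n = 2 each), a difference of 9.5. The groups did not overlap, but as a share of all peaks of a library these windows went from 0.0727% and 0.0719% in the controls to 0.0524% and 0.0628% under tazemetostat. Of the 37 regions, 15 were shared, that is called in all 4 libraries (40.5%, against 20.4% of all regions). Another 6 were tazemetostat-only, called in both tazemetostat libraries and no control (16.2%, against 13.7% of all regions), and 0 were control-only (0.449% of all regions). A further 6 lacked a peak in control replicate 1 alone, the shallowest library (16.2%, against 13.2% of all regions called in both tazemetostat libraries and 1 control). The other 10 were called in 1 library of each group (4, or 10.8%, against 5.12% of all regions) or in a single library (6, or 16.2%, against 46.2%), and 0 were called in both controls and 1 tazemetostat library (0.883%).

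Every member had a region in its window (86.7% of coding genes). Tazemetostat-only regions lay near FTH1, HAMP, SLC40A1, IREB2 and HMOX1, which is 5 of 10 members against 32.4% of the 20046 protein-coding genes. No member had a control-only region, against 1.35% of coding genes. At a transcription start, 8 of 10 members had a region within 1 kb upstream and 100 bp downstream of an annotated transcript start (62.8% of coding genes), and FTH1 and FTL did not. That region was shared in 5 of 10 members (34.9% of coding genes) and tazemetostat-only in 2, HAMP and IREB2 (8.78%). The canonical start itself, that of the main annotated transcript, was covered in TFRC, SLC40A1, SLC11A2, NCOA4 and IREB2 (5 of 10, against 50.1% of coding genes). Of the 37 regions, 21 lay at no start of their own gene and 7 lay in the promoter of another gene.

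**Figure D1:**
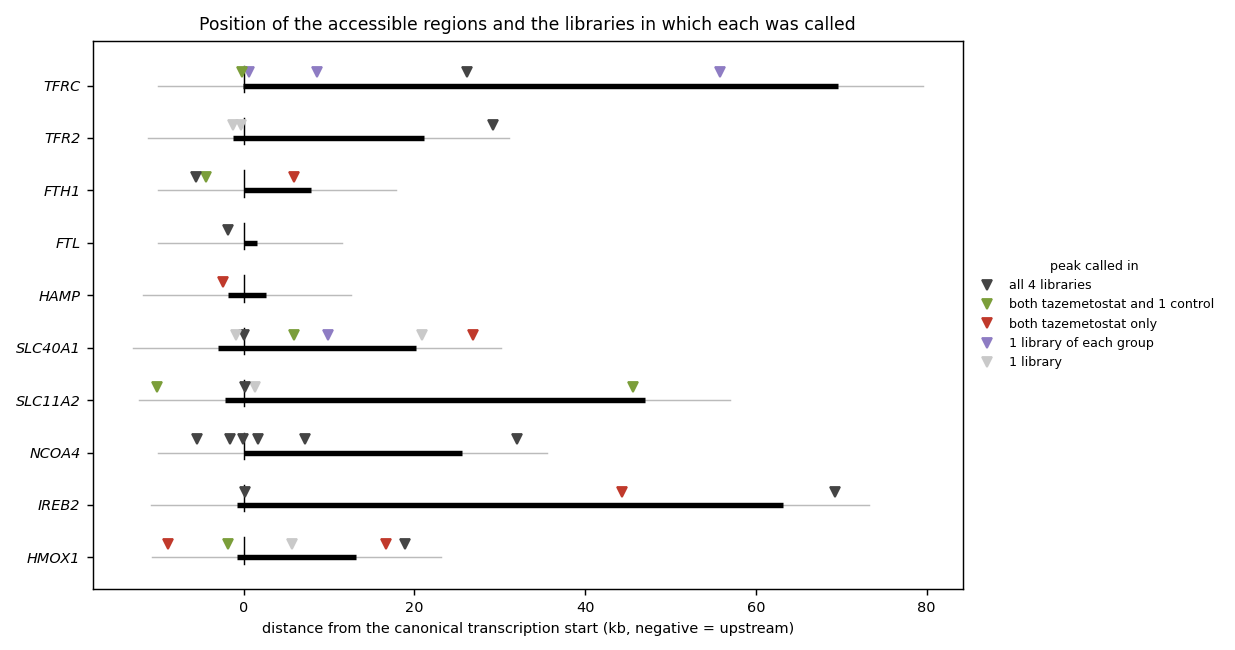
Position of the 37 regions along each gene, in kb from the canonical transcription start, with gene bodies as thick lines and windows as thin lines; the colour of a marker gives the libraries in which a peak was called. The 6 regions of NCOA4 were all called in all 4 libraries, and the tazemetostat-only regions lie at FTH1, HAMP, SLC40A1, IREB2 and HMOX1.

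Tag counts were compared where each library had exactly 1 peak, which held for 13 of the 37 regions and 15383 of all regions, with limma after adding 1 and taking log2. Adding 1 makes the changes of low values look smaller than they are. Of the 13, 4 rose (30.8%, against 42.7% of all tested regions) and 0 fell (0.247% of all tested regions) at a Benjamini-Hochberg adjusted p under 0.05. An unadjusted p under 0.05 was found for 9, and the share of all tested regions with one was not computed. The 4 lie at NCOA4 (2 regions), SLC40A1 and FTH1. All 13 changes were above 0, with a median of 0.68 against 0.70 over all tested regions, so the median of the iron gene regions was close to that of the genome. In 11 of the 13, both tazemetostat values lay above both control values (84.6%, against 81.6% of all tested regions), and in 0 both lay below (1.75%). After each library was centred on its median the median change of all tested regions was -0.06, 0 of the 13 passed the threshold, and 9 of the 13 changes were below 0; no region of the genome passed either. With edgeR and TMM factors 0 of the 13 passed, against 0.15% of all tested regions higher and 1.13% lower, and with DESeq2 0 passed, against 0.0195% higher and 0.67% lower. With edgeR and library sizes from the file headers 7 rose (48.5% of all) and 0 fell (0.338%). The count also depended on single libraries: it was 3 without control replicate 1 (21.0% of all tested regions rose), 7 without control replicate 2 (54.6%), and 0 without either tazemetostat replicate, where 0 of all tested regions passed. NCOA4 supplied 6 of the 13 regions.

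**Figure D2:**
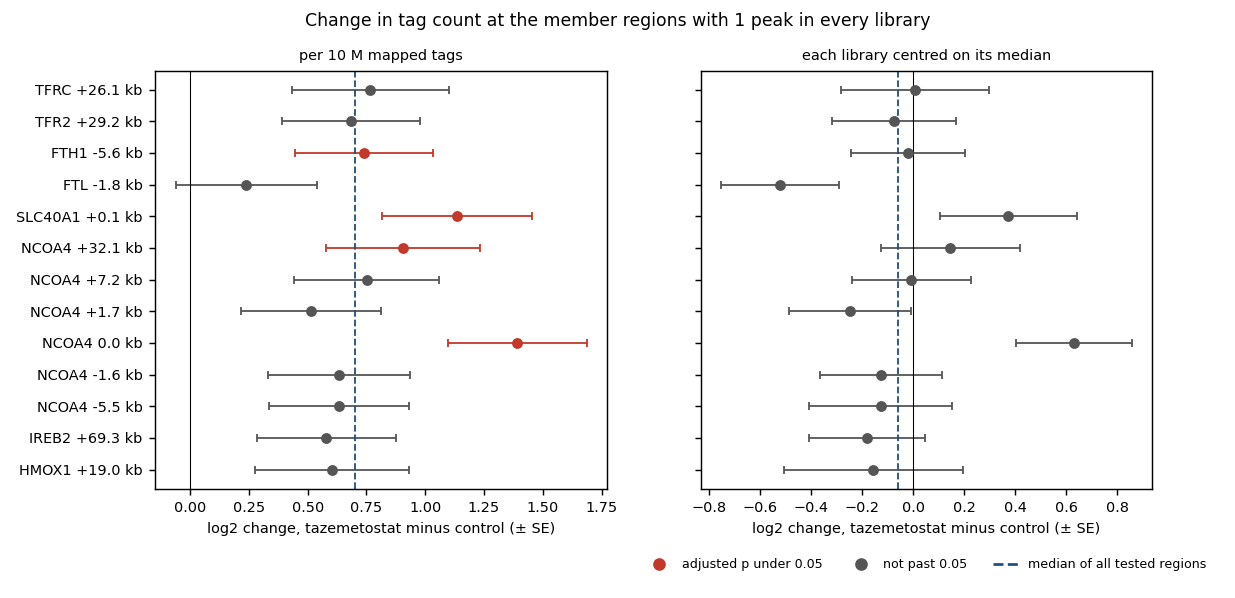
Change in log2(normalised tag count + 1), tazemetostat minus control, with its SE, at the 13 regions that had 1 peak in each of the 4 libraries, each named by gene and distance from the canonical start. On the left, per 10 M mapped tags, all 13 lie above 0 and 4 pass the threshold; on the right, after median centring, 9 lie below 0 and none passes.

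Among the uptake genes, TFRC (chr3:196012511-196082153, minus strand), which encodes transferrin receptor 1, had 5 regions. The region over its canonical start, region 5 at chr3:196081893-196082554, had no peak in control replicate 1, 12.2 in control replicate 2, and 25.7 and 19.2 under tazemetostat. Both tazemetostat values were above the only control value. Region 2, at chr3:196055646-196056287 in an intron 26124 bp into the gene and 405 bp upstream of the start of another transcript, had 9.89 and 21.4 in the controls and 26.7 and 24.5 under tazemetostat. The groups did not overlap, and the spread lay in the controls. The change was 0.77 (SE 0.33, limma adjusted p = 0.0629), which did not pass the threshold, and it rested on control replicate 1: without it the change was 0.25, and with edgeR and TMM factors it was -0.03. Without control replicate 2 it was 1.29 (limma adjusted p = 0.00109). The other regions of TFRC, 1, 3 and 4, had a peak in 1 library of each group, with values from 6.02 to 11.3, the higher one in the control for regions 1 and 4 and in the tazemetostat library for region 3.

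TFR2 (chr7:100620416-100642779, minus strand) encodes transferrin receptor 2, a hepatocyte sensor of transferrin that acts upstream of hepcidin. Its starts carried 2 regions, and each was called in a single library. Region 2, 293 bp upstream of the canonical start, had 18.6 in control replicate 1 only, and region 3, 1279 bp upstream, had 20.2 in tazemetostat replicate 1 only. No peak at a TFR2 start was therefore found in both libraries of either group. The remaining region of the window, region 1 at chr7:100611913-100612725, lies downstream in the promoter of MOSPD3, with 32.6 and 29.0 in the controls and 51.9 and 48.2 under tazemetostat. The groups did not overlap, and the change was 0.68 (SE 0.29, limma adjusted p = 0.0610), or -0.08 after median centring.

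SLC11A2 (chr12:50979401-51028566, minus strand) encodes DMT1, the divalent metal transporter. Its canonical start lay within region 3, chr12:51025631-51026871, which had 33.2 and 55.9 in the controls and 100.8 and 65.2 under tazemetostat. The control and tazemetostat values did not overlap, with control replicate 2 and tazemetostat replicate 2 nearest to each other. This region held more than 1 peak in at least 1 library and so was not among the 13. When tag counts were summed over the peaks of each library, an alternative chosen after seeing the data, its change was 0.90 (limma adjusted p = 0.0421), and in that analysis 4 of 15 member regions rose, against 40.2% of all, and 0 fell (0.256%). Region 1 (chr12:50980595-50980980, exon) had no peak in control replicate 1 and 6.72, 7.56 and 7.53 in control replicate 2 and the tazemetostat libraries. Region 4, in the promoter of RNU6-1273P, likewise lacked a peak in control replicate 1 and had 9.24, then 18.1 and 9.79, so the control value lay just below the lower tazemetostat value. Region 2 was called in control replicate 1 only, at 10.5.

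The storage genes differed from each other in how many regions they carried. FTH1 (chr11:61959718-61967634, minus strand), the ferritin heavy chain, had no peak at its start in any library, and its 3 regions lay 5893 bp downstream and 4400 and 5620 bp upstream of the start. Region 3, chr11:61972910-61973598, had 34.9 and 36.1 in the controls and 65.0 and 55.3 under tazemetostat. The controls were close to each other and both tazemetostat libraries were higher. It rose by 0.74 (SE 0.29, limma adjusted p = 0.0481), and the change was -0.02 after median centring. The call was lost when tag counts were summed over peaks (limma adjusted p = 0.0521), per kilobase of peak (0.0597) and without control replicate 1 (0.101).

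Region 2 of FTH1, chr11:61971753-61972316, had no peak in control replicate 1 and 26.9, 29.2 and 32.0 in control replicate 2 and the tazemetostat replicates. Where it was called, the control and tazemetostat values were close. It holds both antioxidant response elements printed above, 4413 and 4454 bp upstream of the start, and 1 of them is also an AP-1 match. Region 1, chr11:61961442-61962040, was tazemetostat-only, with 41.3 and 34.3 and a fold of 7.11 and 5.15 over the surrounding 10 kb. Its mean of 37.8 lay at the 99.0 percentile of the 11044 tazemetostat-only regions of the genome, whose median was 10.7. The position is an intron of a longer FTH1 transcript and also lies within BEST1, so which of these genes it belongs to is not given by the data.

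FTL (chr19:48965309-48966879, plus strand), the ferritin light chain, had a single region, 1760 bp upstream of its start at chr19:48963296-48963802, in the promoter of the gene ENSG00000267898. Its values were 29.7 and 39.5 in the controls and 38.8 and 42.5 under tazemetostat. The groups overlapped, and the change of 0.24 (SE 0.30, limma adjusted p = 0.474) had an interval of -0.36 to 0.84 at 2 SE on either side. It was the smallest change of the 13, at the 10.4 percentile of all tested regions, and -0.52 after median centring. No peak was called at the FTL start. Both ferritin genes have processed pseudogenes, with which tags of their exons may be shared.

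NCOA4 (chr10:46005088-46030623, minus strand) encodes the receptor that delivers ferritin to the lysosome for the release of its iron. Its 6 regions were called in every library. Region 4, over the canonical start at chr10:46030358-46030911, had 13.4 in both controls and 40.3 and 33.5 under tazemetostat. The controls were equal and both tazemetostat libraries were far above them. The change of 1.39 (SE 0.30, limma adjusted p = 0.00668), a rise of 2.62-fold, was at the 97.4 percentile of all tested regions. It kept its direction in all alternatives tried (0.63 after median centring, adjusted p = 0.374, and 0.74 with edgeR and TMM factors, adjusted p = 0.323), but passed the threshold neither under these scalings nor with DESeq2. Peaks here measured 300 bp in both controls and 538 and 553 bp under tazemetostat. The promoter sequence printed above lies inside this region, with 1 SP/KLF match (42.6% of 35116 RefSeq promoters of that length) and 1 AP-1 match (6.57%).

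Region 1 of the NCOA4 window, chr10:45998068-45999072, lies downstream within TIMM23, with 19.8 and 36.6 in the controls and 61.5 and 42.9 under tazemetostat. It rose by 0.91 (SE 0.33, limma adjusted p = 0.0358), against 0.48 (adjusted p = 0.256) without control replicate 1, and the call was also lost per kilobase of peak (adjusted p = 0.0680). TIMM23 has a near-identical copy, TIMM23B, and how the authors placed tags that map to several positions is not given in the sources used here. Region 2, at a downstream alternative start (chr10:46023073-46023857), had 20.9 and 32.8 against 46.4 and 43.3, a change of 0.75 (SE 0.31, limma adjusted p = 0.0524). That change was 0.44 (adjusted p = 0.295) without control replicate 1 and 1.07 (adjusted p = 0.00628) without control replicate 2. The groups did not overlap at either. The remaining regions 3, 5 and 6, at 1740 bp downstream and 1587 and 5482 bp upstream of the canonical start, had control values of 10.1 to 20.2 and tazemetostat values of 16.1 to 28.7, with changes of 0.51, 0.63 and 0.63 and limma adjusted p of 0.0803 to 0.140. Without control replicate 2, region 5 was at 0.88 (adjusted p = 0.0220). In each of these 3 the groups did not overlap. After median centring regions 2, 3, 5 and 6 were at -0.01 to -0.25, whereas regions 1 and 4 stayed above 0.

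**Figure D3:**
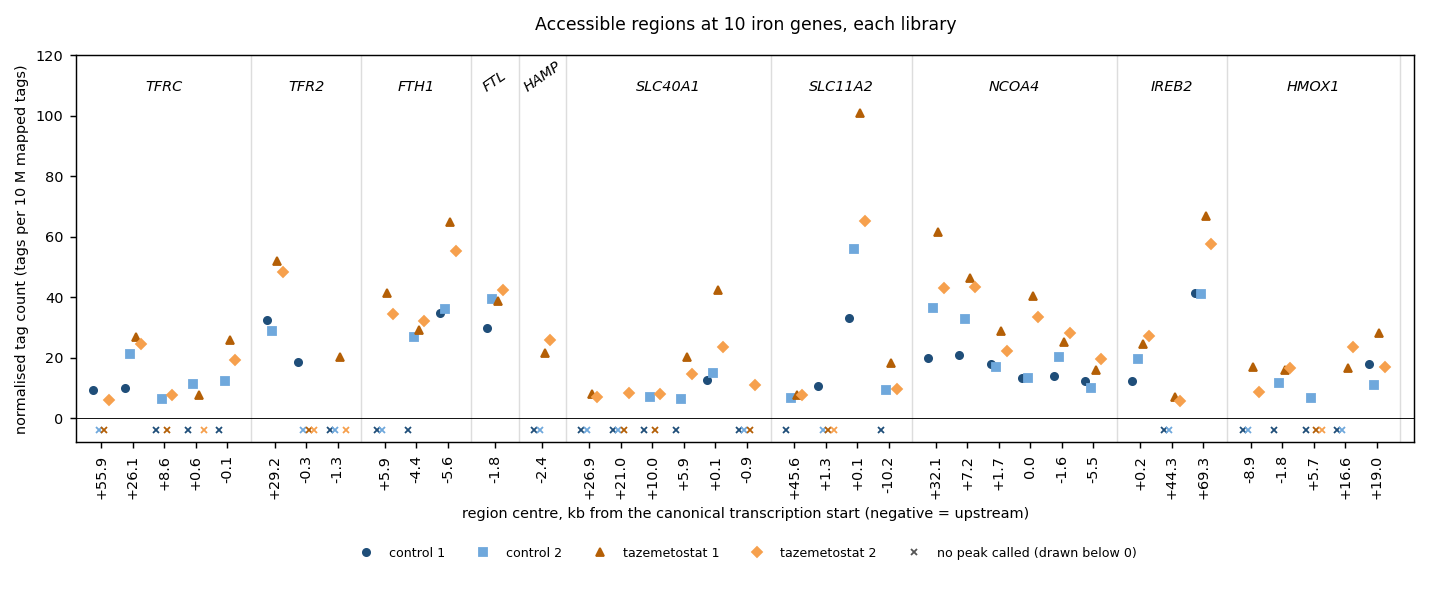
Normalised tag count (tags per 10 M mapped tags) of each library at the 37 regions, ordered within each gene and labelled by the distance in kb from the canonical start; crosses below 0 mark libraries with no peak. At the NCOA4 start the controls lie at 13.4 and the tazemetostat libraries at 40.3 and 33.5, while at FTL the groups overlap.

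HAMP (chr19:35280716-35285143, plus strand), the hepcidin gene, had 1 region in its window, chr19:35279818-35280417, centred 599 bp upstream of the nearest annotated HAMP start and 2411 bp upstream of the canonical start. It was tazemetostat-only, with 21.7 and 26.0 (43 and 69 tags), and no control had a peak anywhere in the window. Its mean of 23.9 was at the 93.0 percentile of the tazemetostat-only regions. The fold over the surrounding 10 kb was 4.90 and 4.96, not far above the 4.0 that a peak needed to be called. This region holds both GGCGCC matches printed above (2 or more matches in the same length were found in 4.17% of 78220 regions).

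IREB2 (chr15:78437431-78501453, plus strand) encodes iron regulatory protein 2, which controls ferritin and transferrin receptor mRNAs when iron is scarce. Region 1, over its canonical start at chr15:78437898-78438981, had 12.2 and 19.7 in the controls and 24.7 and 27.1 under tazemetostat. The groups did not overlap, and with tag counts summed over peaks the change was 0.70 (limma adjusted p = 0.0716). Region 3, chr15:78507090-78507877, in the promoter of HYKK downstream of IREB2, had 41.3 and 41.2 against 67.0 and 57.6, a change of 0.58 (SE 0.29, limma adjusted p = 0.0996), or -0.18 after median centring. Region 2, an intronic region at chr15:78482353-78482705 that also lies in the promoter of ENSG00000259474, was tazemetostat-only with 7.05 and 5.65 (14 and 15 tags). These values were close to the lowest of any peak in those libraries, 5.04 and 4.89.

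SLC40A1 (chr2:189560590-189583758, minus strand), the only known iron exporter of vertebrate cells, had 6 regions. Region 5, over the canonical start at chr2:189580287-189581146, had 12.8 and 15.1 in the controls and 42.3 and 23.7 under tazemetostat. Both tazemetostat libraries were higher, and they differed from each other by more than either control did from the other. It rose by 1.13 (SE 0.32, limma adjusted p = 0.0153), a 2.19-fold change at the 89.9 percentile of all tested regions. After median centring the change was 0.37 (adjusted p = 0.664), and the peak lengths of 387, 586, 859 and 562 bp in control replicates 1 and 2 and tazemetostat replicates 1 and 2 differed as well. The 250 bases printed above hold 3 SP/KLF matches. At least 1 was found in 42.6% of 35116 RefSeq promoters of that length, and the share with as many was not computed.

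Within SLC40A1, region 4 in an intron (chr2:189574635-189575197) lacked a peak in control replicate 1 and had 6.3 in control replicate 2 against 20.2 and 14.7 under tazemetostat. The fold over the surrounding 10 kb was 7.70 in that control and 19.9 and 8.96 under tazemetostat. Region 1, downstream of the gene at chr2:189553715-189554088, was tazemetostat-only with 8.06 and 7.15 (16 and 19 tags), at the 13.9 percentile of such regions. Region 3, an intronic region at chr2:189570641-189571025 that holds the antioxidant response element printed above, had 7.14 in control replicate 2 and 7.91 in tazemetostat replicate 2 and no peak in the other libraries. Regions 2 and 6 were called only in tazemetostat replicate 2, at 8.28 and 10.9.

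HMOX1 (chr22:35380361-35394214, plus strand) had 5 regions and no peak over its canonical start in any library. Region 2, chr22:35379074-35379584, centred 1767 bp upstream of that start, had no peak in control replicate 1 and 11.8, 16.1 and 16.6 in control replicate 2 and the tazemetostat replicates. Both distal regions 1 and 4 were tazemetostat-only. Region 4, downstream of the gene at chr22:35397449-35398018, had 16.6 and 23.7, and region 1, 8894 bp upstream at chr22:35372006-35372398, had 17.1 and 8.66 (34 and 23 tags). The tazemetostat replicates thus stood in opposite orders at these regions. Region 5, in the promoter of MCM5, had 18.0 and 10.9 in the controls and 28.2 and 16.9 under tazemetostat, values that overlapped (0.60, SE 0.33, limma adjusted p = 0.118, and -0.16 after median centring). Its change was 0.94 (limma adjusted p = 0.0340) without control replicate 1, 0.27 without control replicate 2, 0.25 without tazemetostat replicate 1 and 0.96 (adjusted p = 0.122) without tazemetostat replicate 2. Region 3, in an exon 5682 bp into the gene, was called in control replicate 2 only, at 6.72.

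Region 1 of HMOX1 held 4 antioxidant response elements, each 29 bp from the next, 8986 to 9073 bp upstream of the canonical start. The region overlaps the promoter of the lncRNA gene ENSG00000282602, and its centre lies within that gene. Which of these genes it belongs to is not given by the data. The repeats are visible in the sequence above, and 3 of the 4 are also AP-1 matches. As many matches in the same length were found in 43 of 78220 regions (0.055%). The region was called in neither control, and it had a fold over the surrounding 10 kb of 7.96 and 4.99 under tazemetostat.

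**Figure D4:**
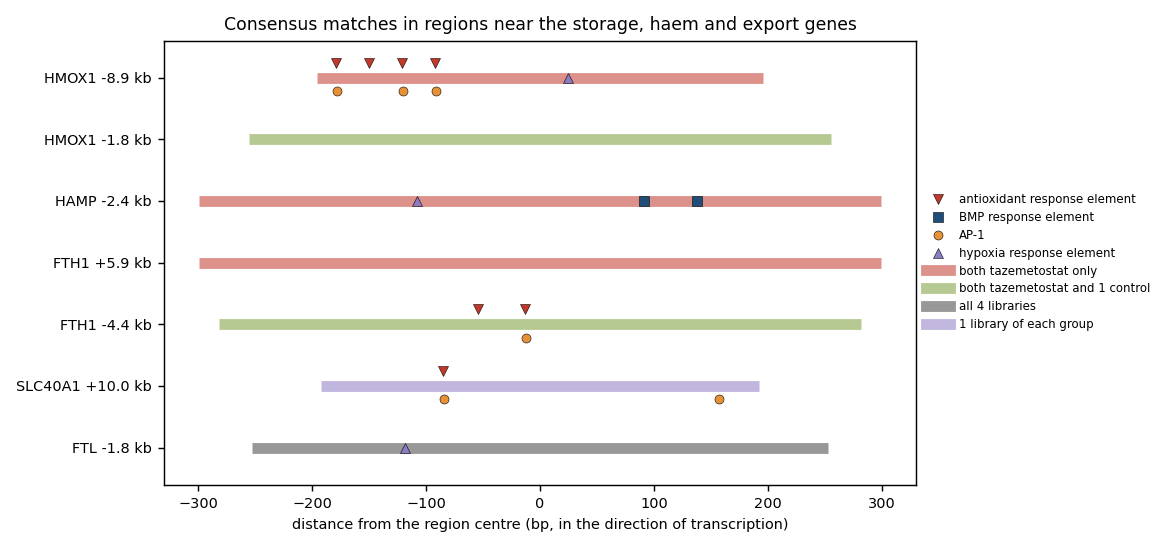
Consensus matches in 7 regions near HMOX1, HAMP, FTH1, SLC40A1 and FTL, in bp from the region centre in the direction of transcription; the bar colour gives the libraries in which the region was called. The distal upstream region of HMOX1 shows 4 evenly spaced antioxidant response elements, 3 of them also AP-1 matches, and the upstream region of HAMP shows 2 BMP response elements.

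Across the 37 regions, the matches of 8 consensus sequences on both strands are given, each beside the share over all regions standardised to the same lengths. Antioxidant response elements were found in 8 regions (21.6%, against 22.2%), so they were no more frequent near iron genes than elsewhere. BMP response elements were also found in 8 (21.6%, against 14.4%), at TFRC, TFR2, FTH1, HAMP, SLC11A2, NCOA4 and IREB2. Hypoxia response elements (ACGTG) were in 13 (35.1%, against 27.6%), SP/KLF in 15 (40.5%, against 27.8%), AP-1 in 8 (21.6%, against 17.2%), NFY (CCAAT) in 16 (43.2%, against 46.8%), STAT (TTCNNNGAA) in 5 (13.5%, against 13.9%) and CEBP (TTGCGCAA) in 0 (0.183%). A match describes the letters only. The member regions had a median GC content of 55.5%, against 51.8% for all regions. The 15 shared member regions had 58.3% and 6.32 CpG per 100 bp, against 53.8% and 2.09 for all shared regions. The 6 tazemetostat-only member regions had 48.1% and 1.37, against 49.4% and 1.38 for all tazemetostat-only regions. The difference between the sets thus ran the same way over the genome.

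Summed over each window, the tag count was higher in both tazemetostat libraries than in both controls for 8 of 10 members (77.9% of coding gene windows with a peak) and lower for 0 (0.731%). TFR2 and FTL overlapped. At FTH1 the sums were 34.9 and 63.0 in the controls and 135.5 and 121.6 under tazemetostat, or 48.95 ± 19.9 against 128.6 ± 9.83 (SD, n = 2 each). SLC40A1 had 12.8 and 28.5 against 70.6 and 72.6, and HMOX1 had 18.0 and 29.4 against 78.0 and 65.9. In these 3 windows the lower tazemetostat value was above the higher control value. A two-sided exact permutation test gave p = 0.33 for each of the 8, the smallest that 2 against 2 libraries allow.

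Peaks also covered more sequence under tazemetostat, 8225 and 11953 bp in the controls against 14720 and 16203 bp over the 10 windows. Per kilobase of peak the tag count was 43.9 and 42.1 in the controls and 62.5 and 49.2 under tazemetostat, still without overlap. By member, this density was higher in both tazemetostat libraries for 8, overlapped at SLC40A1, and had no control value at HAMP. Neither figure was computed for other coding gene windows, so they carry no comparison with the genome. At single regions, the median limma change per kilobase of peak was 0.49 for the 13 member regions, against 0.41 for all tested regions. The number of peaks was higher in both tazemetostat libraries at FTH1, HAMP, IREB2 and HMOX1 (4 of 10, against 36% of coding gene windows), and lower at 0 (0.581%). When the sums were scaled to tags in peaks in place of all mapped tags, the total over the 10 windows went from a difference of 426.0 to -545.1. The windows held 0.0836% and 0.0885% of the peak tags of the controls and 0.0800% and 0.0812% of those under tazemetostat.

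**Figure D5:**
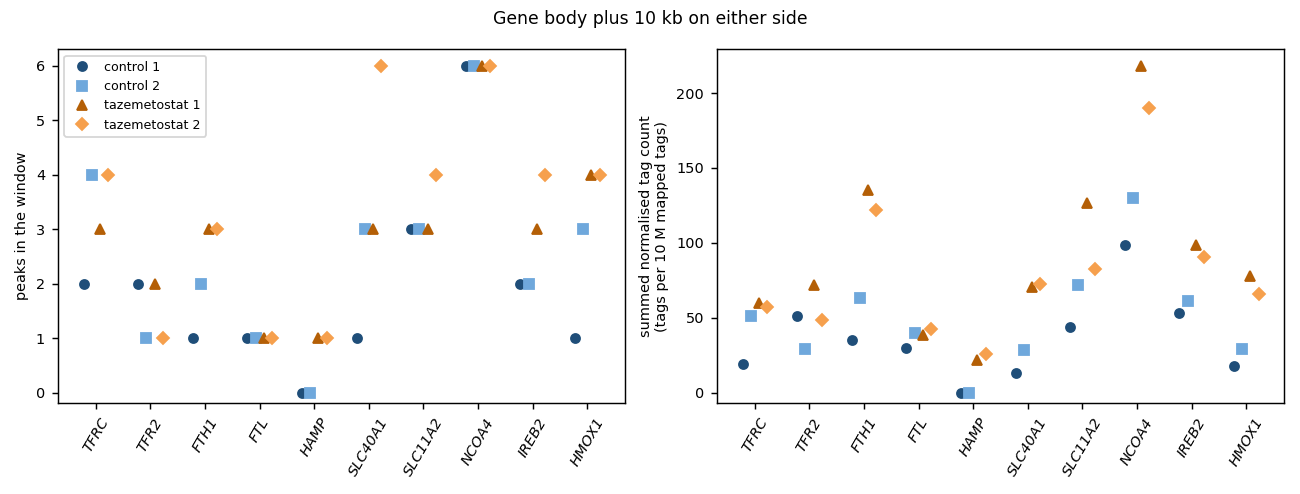
Peaks (left) and summed normalised tag count, in tags per 10 M mapped tags (right), in the gene body plus 10 kb on either side, with 1 point per library. The tazemetostat libraries lie above both controls on the right for every gene but TFR2 and FTL, while NCOA4 has 6 peaks in each library on the left.

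Another 38 genes of iron handling were taken as a list for comparison. Of these, 36 had a region in their window (86.7% of coding genes), 11 had a tazemetostat-only region (32.4% of coding genes) and 1 had a control-only region (1.35%). The last was SMAD6, an inhibitor of BMP signals, with 11.6 and 14.7 in the controls 1048 bp upstream of its start, and a tazemetostat-only region with 27.7 and 18.8 lay over the start itself. Their windows held 170 regions, 15 of them tazemetostat-only (8.82%, against 13.7% of all regions). Of 48 tested regions 15 rose (31.2%, against 42.7% of all tested regions), 1 fell, and the median change was 0.69. The region that fell lies 8700 bp upstream of the start of BLVRA, the gene of a biliverdin reductase, where the start itself had a tazemetostat-only region with 31.2 and 14.3 and the other tested region changed by 0.72. SMAD6 and BLVRA were chosen after their values were seen. At a transcription start, 19 of the genes had a tested region. On the scale of mapped tags such a region rose in 5 of these genes and fell in 0. Of all tested regions, 42.7% rose and 0.247% fell, counted by region, at a start or not, and not by gene. After median centring none of all tested regions passed.

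The largest of these changes was at HP, the gene of the haemoglobin scavenger haptoglobin, with 9.89 and 11.3 in the controls against 35.3 and 23.3 in the tazemetostat libraries, a rise of 1.36 (SE 0.31, limma adjusted p = 0.00804). FBXL5, the iron sensor that targets iron regulatory proteins for degradation, had 19.8 and 30.3 against 58.0 and 55.7, a rise of 1.18 (SE 0.31, limma adjusted p = 0.0123). This FBXL5 region lies at an alternative start 26368 bp upstream of the canonical one, in the promoters of FAM200B and ENSG00000288606. The region over the canonical start had no peak in control replicate 1 and 6.72, 32.8 and 18.4 in the others, so it was not tested. FLVCR1, which encodes a membrane transporter studied as a haem exporter, had 17.5 and 25.6 against 50.4 and 45.5, a rise of 1.14 (SE 0.30, limma adjusted p = 0.0132). The groups did not overlap at these 3 starts, which were chosen for their large changes. Both tazemetostat values lay above both control values in 81.6% of all tested regions.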

How the data were processed

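Each ATAC-seq library was deposited as a list of HOMER peaks with a header. Per the labels, reads were trimmed with Trim Galore 0.6.6, mapped by Bowtie2 2.3.5.1 to hg38, with inserts of up to 2000 bp in the methods, and passed to HOMER 4.11.1. Per the file headers, the authors called peaks of 300 bp in each library separately, without pooling, and stitched them into regions. A peak needed a 4.0-fold enrichment over the surrounding 10 kb at a p-value of 0.0001. The headers give a false discovery rate of 0.001 and the methods 0.05. This local filter took out 77.0% and 80.0% of candidate peaks in control replicates 1 and 2, and 62.7% and 70.9% in tazemetostat replicates 1 and 2.

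The normalised tag count deposited by the authors is a signal in tags per 10 M mapped tags. The deposited peak score was taken to be a tag count, but its meaning after stitching is unclear, and it entered no test. The deposited fold over the local background is a ratio, used to filter. The deposited p-value was not used. Whole tags were recovered from the normalised tag count (largest deviation 0.133 tags) and summed to the tags in peaks of each header. The lowest counts listed were 10 to 13 tags. Counting limits the precision and no molecular identifiers are mentioned.

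Overlapping peaks (1 bp or more) were joined across libraries. Regions with exactly 1 peak per library were compared with limma 3.58.1 (R 4.3.3) on log2(normalised tag count + 1), without a block, with Benjamini-Hochberg adjustment over all 15383 and a threshold of 0.05. edgeR 4.0.16 and DESeq2 1.42.0 on recovered tags were alternatives. The study compared peaks on tag directories, which were not used here. Windows were compared with the exact permutation test. Starts and gene bodies were taken from GENCODE release 44. Of 9 consensus sequences searched in hg38, HNF4 is not reported here, and promoters came from RefSeq (GRCh38), where 7 of 10 members matched. On simulated data with 200 of 15383 regions changed 3-fold and the rest left unchanged, limma recovered 97.5% with 4.41% false calls. The share of false calls where most regions share a shift, as they do here, was not tested.

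Named are all 10 members with their regions at a start, the regions set apart by group and the highest region of each window, other regions being given for completeness, and, of the other iron genes, the 3 with the largest change at a start, with SMAD6 and BLVRA added after their values were seen. The members and lists were chosen with earlier results of these data known.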

Additional observations from a re-analysis of the deposited data

How the results depend on the processing

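The number of member regions that rose was 4 in limma. It was 0 after median centring, 0 in edgeR with TMM factors and 0 in DESeq2, against 7 in edgeR with library sizes from the headers, and 0 to 7 when a library was left out. Unadjusted p was under 0.05 for 9 of the 13 in limma, 1 after median centring and 2 in edgeR with TMM factors. It was under 0.05 for 0 in DESeq2 and 8 in edgeR with library sizes from the headers. The matching shares of all tested regions were not computed. The 7 in edgeR included TFR2 region 1, NCOA4 region 2 and IREB2 region 3, which did not pass in limma. With a pseudocount of 5 the number that rose was 6 of 13 (48.9% of all tested regions) and with a mean of at least 20 it was 6 of 11 (54.1%). Per kilobase of peak it was 4 of 13 (32.9%), with NCOA4 region 2 (limma adjusted p = 0.0352) and IREB2 region 3 (0.0284) newly past the threshold. After median centring the change was below 0 at TFR2 region 1 (-0.076), FTH1 region 3 (-0.020), FTL region 1 (-0.52), NCOA4 regions 2 (-0.0080), 3 (-0.25), 5 (-0.13) and 6 (-0.13), IREB2 region 3 (-0.18) and HMOX1 region 5 (-0.16). In edgeR with TMM factors it was below 0 at TFRC region 2 (-0.034), TFR2 region 1 (-0.0045), FTL (-0.47), NCOA4 regions 3 (-0.17) and 5 (-0.065), IREB2 region 3 (-0.12) and HMOX1 region 5 (-0.077). In DESeq2 it was below 0 at TFRC region 2 (-0.0059), TFR2 region 1 (-0.017), FTL (-0.47), NCOA4 regions 3 (-0.18), 5 (-0.058) and 6 (-0.020), IREB2 region 3 (-0.13) and HMOX1 region 5 (-0.10). These settings remove the shift that most tested regions share.

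Tazemetostat-only member regions numbered 6 at 5 members. When peaks needed a local fold of at least 8 there was 1 region at 1 member, region 4 of SLC40A1. It was not among the 6, and counted only because its peak in control replicate 2, with a fold of 7.70, was filtered out. Over the genome 3652 regions were tazemetostat-only in that setting and 534 control-only. With gene bodies alone there were 2 of 21 regions at 2 members, and with 50 kb on either side 15 of 100 regions at 7 members. The share over all regions was 13.7%. With equal numbers of peaks they lay at 4 members, FTH1, HAMP, SLC40A1 and HMOX1. Over the genome 2586 regions were then tazemetostat-only and 1084 control-only. Tazemetostat-only member regions ranged from 6 to 12 at 5 to 7 members when a library was left out, with 12 without control replicate 2. Over the genome such regions then ranged from 13183 to 25276, with 19638 without control replicate 2, against 11044 with all libraries. Control-only member regions ranged from 0 to 2 (1 without control replicate 1, 2 without control replicate 2). Over the genome these were 5750 without control replicate 1 and 5175 without control replicate 2, against 362 with all libraries. The difference of 9.5 peaks over the 10 windows was 1.5 with a local fold of at least 8, 4.5 with equal numbers of peaks, 3.5 for gene bodies and 30.0 with 50 kb, and 6.5 to 12.5 when a library was left out. It was -0.5 at TFRC and -0.5 at SLC11A2 with equal numbers of peaks, -0.5 at HMOX1 for the gene body and -0.5 at TFRC without control replicate 1.

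The summed tag count differed by 426.0 per 10 M mapped tags, 12.8 per kilobase of peak and -545.1 per 10 M tags in peaks, where TFRC was at -120.4, TFR2 at -288.4, FTL at -305.0, SLC11A2 at -166.4, NCOA4 at -363.3 and IREB2 at -265.0. The cause of the other changes was not tested. The replicate block left 3 of 4 member regions past the threshold, FTH1 region 3 at limma adjusted p = 0.0792, with 5046 in place of 6569 over the genome; replicates of the same number did not deviate together (r = -0.00246 over 15383 regions), so the numbers were not taken as pairs. Counted over all results and their alternatives, 257 values were on the same side, 13 newly passed, 25 no longer passed and 34 changed sign. These totals cover the changes of sign listed above and do not add to them. Peak lists give no value below the calling limit, which sets what can be seen at regions absent from a library.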
